A study of Mus musculus with 24 samples.

Results

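Endothelial cells of the mouse small intestine that were positive or negative for an Rspo3 reporter were compared by RNA sequencing. The comparison used 6 of the 24 libraries of the series, chosen by their labels and column names: 3 of CD31+ Rspo3+ cells and 3 of CD31+ Rspo3- cells. All 24 libraries came from stromal cells of mice on a C57Bl6 background, 8 to 12 weeks old, sorted as negative for Epcam, an epithelial surface protein, and for CD45, a leukocyte surface protein. CD31, encoded by Pecam1, is a surface protein of endothelial cells. Rspo3 was read out through a GFP transgene, so that cells were sorted on the reporter and not on Rspo3 RNA, and the cells of every group, Rspo3- ones included, came from mice described by that transgene's signal. The groups set beside this comparison were the colonic CD31+ cells and the small intestinal CD31- cells, each also divided into Rspo3+ and Rspo3- with 3 libraries a group and of the same strain and age. The labels do not name the promoter of the transgene. Nor do they tie libraries to animals, so p-values cover only library-to-library spread, part of which may be technical.

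Vessels of the gut wall belong to a blood tree and a lymphatic tree. Blood endothelium lines arteries, capillaries and veins, carries nutrients, and in the intestine forms fenestrated capillaries whose pores are spanned by a diaphragm protein encoded by Plvap. Lymphatic endothelium arises under the transcription factor Prox1, responds to VEGF-C through the receptor encoded by Flt4, and in the villi forms the lacteals that take up dietary fat packed in chylomicrons. R-spondin 3, the product of Rspo3, is a secreted protein that binds Lgr receptors and raises the response of intestinal stem cells to Wnt ligands.

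The 6 libraries held 8462041 to 21302297 estimated counts (median 14355534.5), and levels are given as CPM (counts relative to the scaled library total) or as TPM, which also corrects for transcript length, with the 3 libraries of a group always in the order 1 to 3. Log2 fold changes (log2FC) are Rspo3+ minus Rspo3-, ± SE, with Benjamini-Hochberg adjusted p from edgeR. The fit took its spread from all 24 libraries in 8 groups, so an SE can differ from the spread of the 6 compared libraries. Correlations of log2 CPM were 0.953 to 0.978 within the 2 groups and 0.889 to 0.926 between them, and no 2 libraries of a group agreed within sampling noise. Library 2 of the Rspo3- group stood slightly apart from its group, with correlations of 0.953 and 0.959 to the others against 0.974 between those. The mitochondrial share of counts was 0.493 to 1.04% in Rspo3+ and 0.658 to 1.59% in Rspo3- libraries.

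The genes of the sort were read first. Rspo3 (chromosome 10, 29452416-29535867, minus strand, GRCm38) was at 449.9, 303 and 401 CPM in Rspo3+ and 24.1, 15.3 and 21.5 CPM in Rspo3- libraries (log2FC 4.24 ± 0.25, adjusted p = 7.97e-10). The 3 Rspo3+ libraries were all above the 3 Rspo3- libraries, as their labels state. Pecam1 (chromosome 11, 106654217-106750628, minus strand) was present in all 6 libraries and was lower in Rspo3+ cells, at 435, 481 and 347 CPM in Rspo3+ and 1229, 1091 and 1078 CPM in Rspo3- libraries (log2FC -1.43 ± 0.32, adjusted p = 0.00256). Both groups carried the RNA of the CD31 gate, at unequal levels.

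Of 19050 genes tested, 3820 (20.1%) passed an adjusted p of 0.05 in edgeR's quasi-likelihood test between Rspo3+ and Rspo3- cells. Higher in Rspo3+ cells were 1758 genes (9.23%) and lower were 2062 (10.8%). These shares are the background for the counts of gene lists below. Some genes are members of several lists, so the counts of different lists are not separate results. The median log2 fold change of all genes tested was 0. Leaving out Rspo3- library 2 gave 1480 higher and 1881 lower genes. The levels of 3604 of the called genes did not overlap between the groups, as was so for 31.7% of all genes tested. Many genes named below were chosen for a small adjusted p, so that lack of overlap largely follows from their choice. In bulk RNA, fewer cells of a type and less RNA per cell cannot be told apart, and this holds for each level below.

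**Figure D1:**
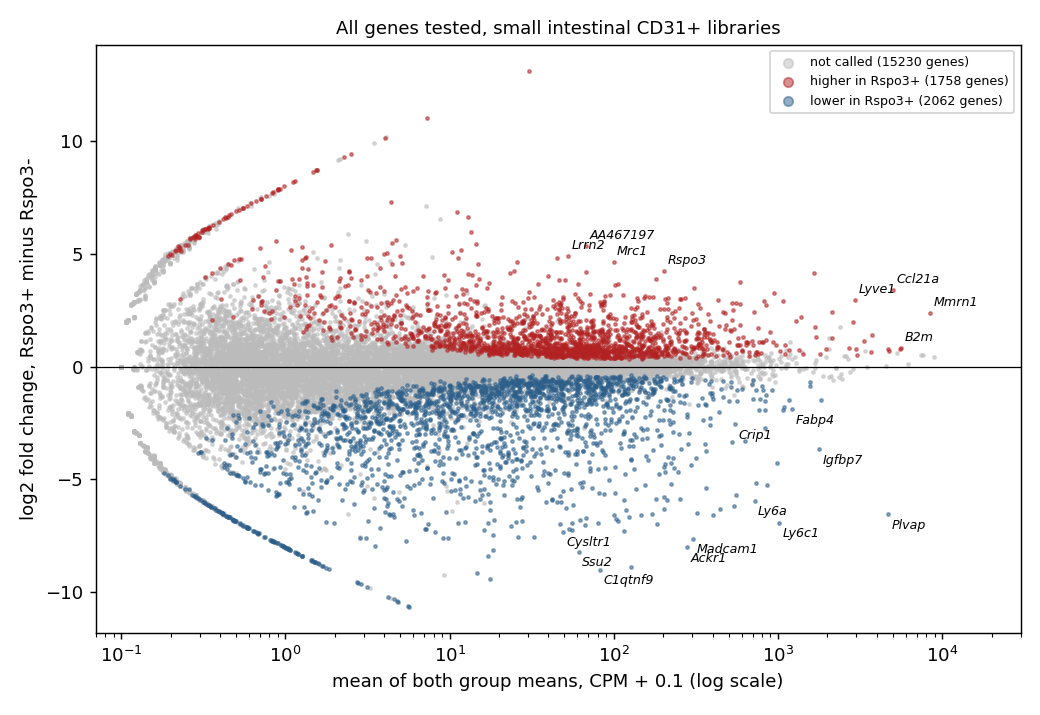
Log2 fold change (Rspo3+ minus Rspo3-, vertical) of the 19050 genes tested against the mean of both group means (CPM + 0.1, log scale, horizontal), with 1758 higher genes in red, 2062 lower genes in blue and others in grey. Ccl21a and Mmrn1 stand far right and high, Plvap far right and low, and the curved edges are genes at 0 in one of the groups.

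The most abundant genes that rose, ranked by TPM, joined lymphatic genes with genes found in most cells. Ccl21a, a chemokine that draws CCR7-bearing dendritic cells and T cells to lymphatic vessels, was at 18648, 17871 and 20014 TPM in Rspo3+ and 1334, 1571 and 2753 TPM in Rspo3- libraries. Its counts can share reads with near-identical copies in the mouse genome, so that its level is uncertain and stands for this group of genes. Mmrn1, encoding the secreted protein multimerin 1, was at 4058, 5298 and 5206 TPM in Rspo3+ and 520.2, 1329 and 1102 TPM in Rspo3- libraries. Lyve1, a hyaluronan receptor of lymphatic capillaries, was at 3309, 4063 and 3339.6 TPM in Rspo3+ and 384, 257 and 771 TPM in Rspo3- libraries. The Rspo3+ libraries were above the Rspo3- libraries for each of these 3 genes.

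Tmsb4x, an actin-binding peptide gene, was at 17840.5, 14694 and 17756 TPM in Rspo3+ and 10337, 9013 and 11349 TPM in Rspo3- libraries and rose (log2FC 0.79 ± 0.18, adjusted p = 0.00339). Fth1, the heavy chain of ferritin, which stores iron, was at 8124, 8025 and 9746 TPM in Rspo3+ and 3749, 3361 and 5483 TPM in Rspo3- libraries (log2FC 1.12 ± 0.24, adjusted p = 0.00168). Nfkbia, the inhibitor of NF-kappaB, was at 4096, 4933 and 4332 TPM in Rspo3+ and 2619.8, 2702 and 2895 TPM in Rspo3- libraries (log2FC 0.77 ± 0.19, adjusted p = 0.00548). These 3 genes were separated between the groups by less than the lymphatic ones. Dusp1, a phosphatase gene of the early stress response, was at 5029, 5639 and 7066 CPM in Rspo3+ and 2569, 5088 and 2719.5 CPM in Rspo3- libraries with overlapping groups (log2FC 0.77 ± 0.26, adjusted p = 0.0423). Its call was lost without Rspo3+ library 2 (adjusted p = 0.0647) or 3 (0.157), or without Rspo3- library 1 (0.157) or 3 (0.145). Ppia, encoding cyclophilin A, was at 1700.4, 1454 and 1898 CPM in Rspo3+ and 1303, 866 and 1274 CPM in Rspo3- libraries (log2FC 0.55 ± 0.18, adjusted p = 0.033). That call was lost without Rspo3+ library 1 (adjusted p = 0.0765) or 3 (0.127), or without Rspo3- library 2 (0.149).

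The most abundant genes that fell were led by Plvap, at 61.8, 88.6 and 89.1 TPM in Rspo3+ and 7167, 9497 and 6919 TPM in Rspo3- libraries. Igfbp7, a secreted protein of the vessel wall that binds insulin-like growth factors, was at 362, 492 and 352 TPM in Rspo3+ and 7242, 3067 and 5792 TPM in Rspo3- libraries. Ly6c1, a surface protein gene of blood capillaries, was at 30.9, 51.8 and 25.7 TPM in Rspo3+ and 6165, 3192 and 4859 TPM in Rspo3- libraries. Its relative Ly6a, which encodes Sca-1, was at 39.5, 66.5 and 38.8 TPM in Rspo3+ and 4214, 2095 and 3113 TPM in Rspo3- libraries, and genes of the Ly6 family resemble each other closely enough that their reads may be split between them. All Rspo3- libraries lay above all Rspo3+ libraries for these 4 genes. Fabp4, a fatty acid carrier, was at 599, 530.1 and 427 CPM in Rspo3+ and 2789.8, 929 and 2049 CPM in Rspo3- libraries and had its lowest Rspo3- value in library 2 (log2FC -1.89 ± 0.40, adjusted p = 0.00184). Crip1, a small LIM-domain protein gene, was at 132, 169 and 172 CPM in Rspo3+ and 1104, 779.9 and 910.2 CPM in Rspo3- libraries (log2FC -2.56 ± 0.24, adjusted p = 1.97e-07). Cst3, encoding the protease inhibitor cystatin C, was at 615, 558 and 665 CPM in Rspo3+ and 1666, 1883 and 1657 CPM in Rspo3- libraries (log2FC -1.50 ± 0.17, adjusted p = 1.81e-06). Smaller falls were found for Ifitm2, a membrane protein gene of the antiviral response (log2FC -1.06 ± 0.20, adjusted p = 5.24e-04), and for Tsc22d1, a transcriptional regulator (log2FC -1.47 ± 0.24, adjusted p = 1.36e-04). In Tsc22d1 the Rspo3- libraries were at 1979, 4043 and 2036 CPM, with library 2 the highest.

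Genes that mark lymphatic endothelium were higher in Rspo3+ cells. Of 17 members tested, 16 rose, with a median log2 fold change of 2.77, and their summed level was 28644 to 30572 TPM in Rspo3+ and 2609.7 to 5194 TPM in Rspo3- libraries. The sums of the groups did not overlap, and the Rspo3- libraries kept lymphatic RNA at a lower level. Ccl21a, whose level is uncertain, supplied most of the Rspo3+ sums, at 18648, 17871 and 20014 TPM. The remaining member, Klhl4, was at 172, 174 and 192 CPM in Rspo3+ and 75, 94.2 and 134 CPM in Rspo3- libraries. It was not called (log2FC 0.83 ± 0.57, adjusted p = 0.348).

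Nrp2, the co-receptor for VEGF-C, was at 1201, 1083 and 804 CPM in Rspo3+ and 175, 123 and 148 CPM in Rspo3- libraries (log2FC 2.79 ± 0.28, adjusted p = 3.96e-07). Itga9, an integrin subunit needed for lymphatic valves, was at 265, 287 and 189 CPM in Rspo3+ and 54.6, 31 and 61.8 CPM in Rspo3- libraries (log2FC 2.33 ± 0.26, adjusted p = 1.30e-06). Thy1, a surface protein gene of lymphatic endothelium, was at 58.8, 40.3 and 48.1 CPM in Rspo3+ and 8.56, 5.54 and 10.9 CPM in Rspo3- libraries (log2FC 2.56 ± 0.25, adjusted p = 2.56e-07). For these 3 genes the lowest Rspo3+ library was above the highest Rspo3- library. Prox1, the regulator of lymphatic fate, was at 629, 677 and 404 CPM in Rspo3+ and 72.5, 84.6 and 94 CPM in Rspo3- libraries (log2FC 2.77 ± 0.39, adjusted p = 2.55e-05), and Flt4, the VEGF-C receptor, at 2029, 2374 and 1262 CPM in Rspo3+ and 248, 176 and 335 CPM in Rspo3- libraries (log2FC 2.90 ± 0.56, adjusted p = 7.42e-04). Rspo3+ library 3 had the lowest value of its group for both Prox1 and Flt4 and still exceeded every Rspo3- library. Mrc1, the mannose receptor, had the steepest rise of the list, at 216, 213 and 146 CPM in Rspo3+ and 5.84, 5.12 and 12.3 CPM in Rspo3- libraries (log2FC 4.63 ± 0.93, adjusted p = 0.00104). Lyve1 (log2FC 2.96 ± 0.50, adjusted p = 1.90e-04), Ccl21a (log2FC 3.40 ± 0.38, adjusted p = 1.67e-06) and Mmrn1 (log2FC 2.38 ± 0.56, adjusted p = 0.00383) rose too.

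**Figure D2:**
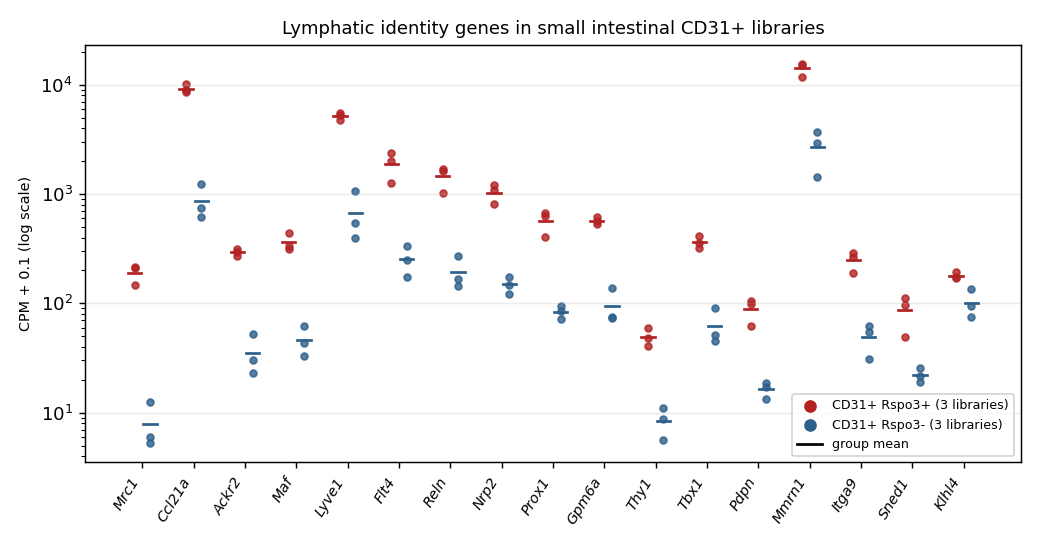
CPM + 0.1 (log scale) of the 17 lymphatic identity genes in each of the 3 Rspo3+ libraries (red) and 3 Rspo3- libraries (blue) of small intestinal CD31+ cells, with lines at the group means. The red points lie above the blue points for each gene, closest for Klhl4, the member that was not called.

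Genes of lymphatic valves and collecting vessels moved in both directions. Of 14 tested, 3 rose and 4 fell, with a median log2 fold change of 0.28 and overlapping sums of 781 to 853 TPM in Rspo3+ and 774 to 875 TPM in Rspo3- libraries. Lama5, a basement membrane laminin chain, was at 1.79, 0.552 and 0.356 CPM in Rspo3+ and 57.5, 47 and 56.8 CPM in Rspo3- libraries (log2FC -5.77 ± 0.43, adjusted p = 1.05e-08, and -6.80 without Rspo3+ library 1). Fat4, a large cadherin of planar polarity, was at 4.54, 7.3 and 6.16 CPM in Rspo3+ and 36, 21.9 and 23.3 CPM in Rspo3- libraries (log2FC -2.18 ± 0.33, adjusted p = 5.62e-05). The valve regulator Foxc2 was at 33.6, 40.5 and 24.7 CPM in Rspo3+ and 15.9, 14.7 and 19.5 CPM in Rspo3- libraries. It did not pass the test (log2FC 0.98 ± 0.56, adjusted p = 0.25).

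Genes of blood capillaries and tip cells were lower in Rspo3+ cells. Of 18 tested, 12 fell and 3 rose, with a median log2 fold change of -4.20. Their summed level was 2126 to 2426 TPM in Rspo3+ and 11531 to 14223 TPM in Rspo3- libraries. Plvap was at 75.9, 108 and 114 CPM in Rspo3+ and 8481, 11371 and 7944 CPM in Rspo3- libraries (log2FC -6.55 ± 0.51, adjusted p = 1.54e-08). Nrp1, the co-receptor of VEGF-A, was at 9.96, 20.1 and 20.7 CPM in Rspo3+ and 807, 594 and 741 CPM in Rspo3- libraries (log2FC -5.41 ± 0.37, adjusted p = 3.40e-09). Rgs5, a regulator of G protein signaling that pericytes also express, was at 9.13, 21.4 and 10.7 CPM in Rspo3+ and 265, 223 and 236 CPM in Rspo3- libraries (log2FC -4.13 ± 0.33, adjusted p = 2.34e-08). The groups did not overlap for Plvap, Nrp1 or Rgs5. In small intestinal CD31- cells, Rgs5 averaged 262 CPM in Rspo3+ and 196 CPM in Rspo3- libraries. The 3 members that rose were Angpt2, Gpihbp1 and Lama4. Angpt2, a ligand of the Tie2 receptor that lymphatic vessels need for their growth, was at 203, 228 and 217 CPM in Rspo3+ and 51.8, 68.2 and 65.5 CPM in Rspo3- libraries (log2FC 1.81 ± 0.29, adjusted p = 1.04e-04). Gpihbp1, which carries lipoprotein lipase to the capillary lumen, was at 441, 519 and 654 CPM in Rspo3+ and 180.1, 221 and 283 CPM in Rspo3- libraries (log2FC 1.24 ± 0.36, adjusted p = 0.0197). Kdr, encoding VEGF receptor 2, was high in both groups, at 1504, 1599.9 and 1128 CPM in Rspo3+ and 1128, 879.7 and 861 CPM in Rspo3- libraries. Kdr was not called (log2FC 0.56 ± 0.70, adjusted p = 0.642) in this fit, whose spread came from all 8 groups.

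Promoter sequence was read for the 3 members with the smallest adjusted p of the lymphatic identity and of the blood capillary lists, to show what lies upstream of genes that moved in opposite directions. Of 6 genes sought, 4 were in RefSeq's promoter table (GRCm38.p6), and in 2 of them the table's window held at least 200 bases upstream of the gene start. These were Nrp2, which rose, and Rgs5, which fell. Both lie on the plus strand of chromosome 1. The sequences end at the base before the GENCODE gene start, run 5′ to 3′, and carry in capitals the matches to 9 motifs sought on both strands.
Nrp2, chr1:62703067-62703284: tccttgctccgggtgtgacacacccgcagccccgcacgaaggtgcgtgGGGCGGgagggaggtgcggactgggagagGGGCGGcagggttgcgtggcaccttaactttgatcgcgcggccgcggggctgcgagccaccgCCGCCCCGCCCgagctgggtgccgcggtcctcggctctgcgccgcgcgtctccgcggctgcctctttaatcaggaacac
Rgs5, chr1:169655251-169655500: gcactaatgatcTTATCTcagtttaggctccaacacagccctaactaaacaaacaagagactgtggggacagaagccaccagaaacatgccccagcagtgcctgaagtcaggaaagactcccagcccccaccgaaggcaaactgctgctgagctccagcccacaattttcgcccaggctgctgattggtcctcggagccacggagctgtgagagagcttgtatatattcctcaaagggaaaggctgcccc

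The 218 bases upstream of Nrp2 held 4 matches to the GC box (GGGCGG), starting 170, 141, 79 and 74 bases before the gene start, the last 2 on the other strand and overlapping each other. The 250 bases upstream of Rgs5 held 1 match to the GATA motif (AGATAA, on the other strand), 238 bases before the start. The other motifs sought were the ETS motif (CCGGAAG), the TATA box (TATAAA), AP-1 (TGANTCA), a forkhead motif (TGTTTAC), the nuclear receptor half-site (AGGTCA), the interferon-stimulated response element and the E-box (CACGTG). In windows of 250 bases, the GC box was present in 39.4% of 20595 promoters of the table, in 55.0% of the 12767 promoters of genes tested, in 60.0% of 1286 promoters of higher genes and in 59.3% of 1492 promoters of lower genes. The GATA motif was present in 9.31% of all promoters, in 6.52% of those of genes tested, in 4.82% of those of higher genes and in 6.17% of those of lower genes. For ETS the shares were 12.3% of genes tested, 12.2% of higher and 8.65% of lower genes, and for the E-box 7.90%, 9.72% and 6.30%. These shares are descriptions and were not tested.

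Arterial genes were mostly lower in Rspo3+ cells, with 11 of 16 falling and 1 rising, and a median log2 fold change of -2.51. Their summed level was 452 to 602 TPM in Rspo3+ and 2539 to 3064 TPM in Rspo3- libraries. Gja5, encoding connexin 40, a gap junction protein of arterial endothelium, was at 0.643, 0.429 and 0.474 CPM in Rspo3+ and 193, 413 and 153 CPM in Rspo3- libraries (log2FC -8.88 ± 0.74, adjusted p = 3.47e-08). Sox17, a transcription factor of arterial fate, was at 1.97, 3.37 and 3.56 CPM in Rspo3+ and 394, 362 and 342 CPM in Rspo3- libraries (log2FC -6.97 ± 0.68, adjusted p = 2.56e-07). Fbln5, which helps to assemble elastic fibers, was at 103, 117 and 133 CPM in Rspo3+ and 885, 1728 and 818 CPM in Rspo3- libraries (log2FC -3.28 ± 0.27, adjusted p = 2.76e-08). In the Rspo3- group, library 2 had the highest value of Gja5 and Fbln5, and for Sox17 its 3 libraries lay close together. The member that rose was Unc5b, a netrin receptor, at 142, 120.3 and 111 CPM in Rspo3+ and 48.8, 29.2 and 43 CPM in Rspo3- libraries (log2FC 1.63 ± 0.21, adjusted p = 1.19e-05). Dll4, a Notch ligand of arterial and tip cells, was at 254, 242 and 196 CPM in Rspo3+ and 313, 252 and 338 CPM in Rspo3- libraries. This difference was not called (log2FC -0.39 ± 0.48, adjusted p = 0.646).

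Of 14 venous genes, 7 fell and 3 rose, with a median log2 fold change of -2.71 and sums of 2372 to 2855 TPM in Rspo3+ and 4717 to 7589.5 TPM in Rspo3- libraries. Ackr1, an atypical chemokine receptor of venules, was at 0.872, 4.05 and 1.42 CPM in Rspo3+ and 359, 963 and 338 CPM in Rspo3- libraries (log2FC -8.02 ± 0.87, adjusted p = 1.13e-06, and -8.98 without Rspo3+ library 2 and -7.35 without Rspo3- library 2). Vwf, the platelet-binding von Willebrand factor, was at 2.98, 8.28 and 3.79 CPM in Rspo3+ and 548, 329 and 316 CPM in Rspo3- libraries (log2FC -6.30 ± 0.66, adjusted p = 6.92e-07, and -6.88 without Rspo3+ library 2). Aplnr, the apelin receptor, was at 3.35, 2.21 and 0 CPM in Rspo3+ and 225, 185 and 182 CPM in Rspo3- libraries (log2FC -6.59 ± 0.67, adjusted p = 4.74e-07, and -7.25 without Rspo3+ library 1). No Rspo3+ library reached the lowest Rspo3- library for these 3 genes. Nr2f2, encoding COUP-TFII, which acts in venous and in lymphatic endothelium, rose, at 209, 147 and 222 CPM in Rspo3+ and 58.9, 51.8 and 73.8 CPM in Rspo3- libraries (log2FC 1.65 ± 0.22, adjusted p = 1.25e-05). The other members that rose were Ephb4 (log2FC 0.56 ± 0.19, adjusted p = 0.0482) and Tll1 (log2FC 0.97 ± 0.34, adjusted p = 0.0464), and the number of venous genes that rose was 1 instead of 3 without Rspo3+ library 1 or 2, with no filter or with limma on log2(TPM + 0.1). Emcn, encoding endomucin, was at 627, 589 and 665 CPM in Rspo3+ and 527, 333 and 566 CPM in Rspo3- libraries and was not called.

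**Figure D3:**
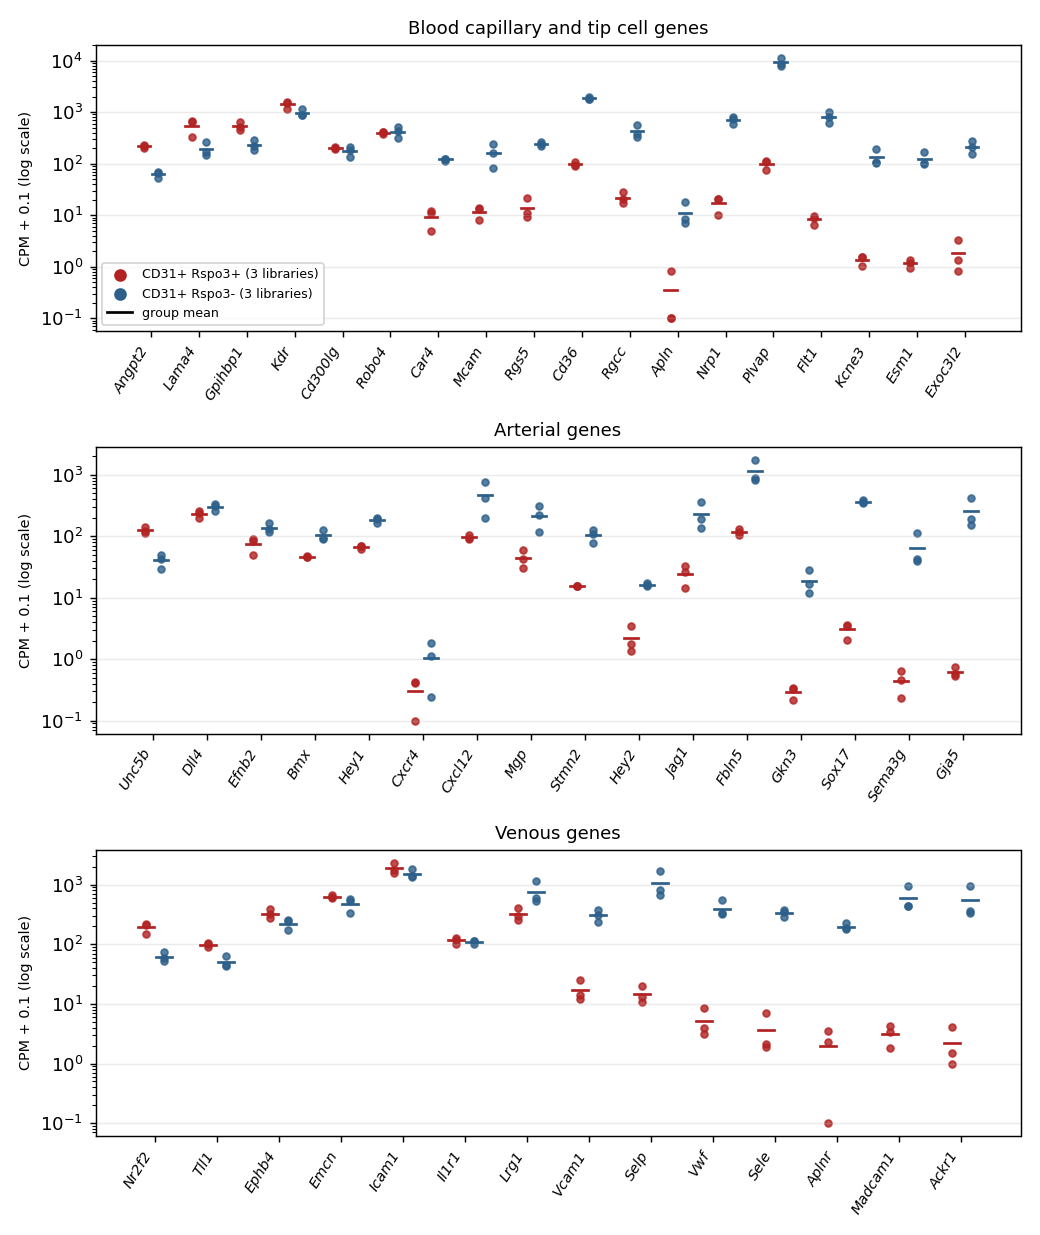
CPM + 0.1 (log scale) of 18 blood capillary and tip cell genes, 16 arterial genes and 14 venous genes in each Rspo3+ library (red) and Rspo3- library (blue), with lines at the group means and a library at 0 drawn at 0.1. The blue points lie above the red ones for most genes, while Angpt2, Unc5b and Nr2f2, at the left, show the reverse.

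Most markers of cells that wrap vessels fell, while some rose. Rgs5 counts in both the blood capillary and the pericyte list. Of 10 smooth muscle markers, 8 fell and 1 rose, with summed levels of 471 to 618 TPM in Rspo3+ and 619 to 1119 TPM in Rspo3- libraries. Acta2, encoding smooth muscle actin, was at 55.1, 90.3 and 49.2 CPM in Rspo3+ and 542, 234 and 349.7 CPM in Rspo3- libraries (log2FC -2.53 ± 0.34, adjusted p = 1.29e-05). The marker that rose, and the most abundant of the list, was Smtn, encoding smoothelin, at 663, 710.3 and 802 CPM in Rspo3+ and 201, 195 and 282 CPM in Rspo3- libraries (log2FC 1.68 ± 0.17, adjusted p = 2.94e-07). Of 9 pericyte markers, 7 fell and 2 rose, and none of the 9 was at 0 in all 6 libraries. Pdgfrb, the receptor that recruits pericytes, was at 5.65, 18.3 and 6.4 CPM in Rspo3+ and 98.7, 30.1 and 87.6 CPM in Rspo3- libraries (log2FC -2.82 ± 0.47, adjusted p = 1.52e-04). The pericyte markers that rose, Kcnj8 and Abcc9, encode the pore and the regulatory subunit of a potassium channel gated by ATP. Abcc9 was at 25.2, 42.1 and 21.9 CPM in Rspo3+ and 14.8, 7.75 and 14.7 CPM in Rspo3- libraries (log2FC 1.26 ± 0.33, adjusted p = 0.00864), and without Rspo3+ library 2 only 1 of these 2 was called. The sums of the pericyte list, with Kcnj8 among the members that rose, overlapped between the groups, at 223 to 269.8 TPM in Rspo3+ and 215 to 286 TPM in Rspo3- libraries. The part of mural cell RNA in the lower blood vessel genes was not tested.

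Most genes shared by all endothelium were not called, and those called by edgeR's test were lower in Rspo3+ cells. Of 21 pan-endothelial genes, 6 fell, and edgeR's test called 0 higher, with 1 higher at an unadjusted p under 0.05, 0 with DESeq2, 1 with limma voom and 1 in a fit of only the 6 compared libraries, in which 15191 genes were tested. The median log2 fold change was -0.30, and among all genes tested 10.8% fell and 9.23% rose. The sums of this list did not overlap, at 5033 to 5367 TPM in Rspo3+ and 6451 to 7834 TPM in Rspo3- libraries. Cdh5, encoding VE-cadherin, was at 150.4, 115 and 74.7 CPM in Rspo3+ and 200.2, 113 and 134 CPM in Rspo3- libraries. It was not called (log2FC -0.39 ± 0.45, adjusted p = 0.61). Cd34, a sialomucin of blood capillaries, was at 30.5, 44.6 and 32.5 CPM in Rspo3+ and 597, 661 and 532 CPM in Rspo3- libraries (log2FC -4.06 ± 0.26, adjusted p = 1.86e-09). Esam, a junctional adhesion protein, was at 17.1, 20.4 and 24.4 CPM in Rspo3+ and 1127, 995 and 1126 CPM in Rspo3- libraries (log2FC -5.72 ± 0.40, adjusted p = 4.32e-09). Clec14a, a surface lectin-like protein gene of vessels, was at 20.7, 23.4 and 17.9 CPM in Rspo3+ and 261, 232 and 227 CPM in Rspo3- libraries (log2FC -3.53 ± 0.25, adjusted p = 4.32e-09). The libraries of the groups did not overlap for Cd34, Esam or Clec14a, and the endothelial regulators Erg and Fli1 were not called.

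Junction genes split, with 5 of 26 higher and 10 lower. Jam2, an adhesion molecule of blood endothelial junctions, was at 3.4, 10.5 and 7.35 CPM in Rspo3+ and 659, 675 and 575 CPM in Rspo3- libraries (log2FC -6.49 ± 0.45, adjusted p = 4.02e-09). Nectin2, a cell adhesion molecule linked to afadin, was at 564, 619 and 675 CPM in Rspo3+ and 98.1, 207 and 147 CPM in Rspo3- libraries and rose (log2FC 2.04 ± 0.29, adjusted p = 3.51e-05). Of 44 endothelial transcription factors, 9 rose (14 with limma voom) and 11 fell. Epas1, encoding HIF-2alpha, was at 23.1, 20.2 and 15.5 CPM in Rspo3+ and 494, 312 and 371 CPM in Rspo3- libraries (log2FC -4.31 ± 0.36, adjusted p = 4.04e-08). Foxf1, a forkhead factor of visceral vessels, was at 7.02, 12.8 and 19.3 CPM in Rspo3+ and 108, 194 and 109 CPM in Rspo3- libraries (log2FC -3.41 ± 0.35, adjusted p = 4.31e-07). Meox1, a homeobox factor, was at 206, 183 and 217 CPM in Rspo3+ and 69, 82 and 55.4 CPM in Rspo3- libraries and rose (log2FC 1.55 ± 0.19, adjusted p = 3.46e-06). The Rspo3+ and Rspo3- libraries did not overlap in these 5 genes.

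Ligands and receptors of the VEGF and angiopoietin system were divided between the groups, with 5 of 18 higher and 6 lower. Pgf, encoding placental growth factor, a ligand of VEGF receptor 1, was at 139, 169.9 and 258 CPM in Rspo3+ and 15.5, 16.9 and 14.3 CPM in Rspo3- libraries (log2FC 3.60 ± 0.28, adjusted p = 1.79e-08). Vegfc, the ligand of the lymphatic receptor Flt4, was at 1.79, 4.35 and 1.07 CPM in Rspo3+ and 119.6, 99.5 and 104 CPM in Rspo3- libraries (log2FC -5.44 ± 0.44, adjusted p = 2.37e-08, and -6.15 without Rspo3+ library 2). Flt1, encoding VEGF receptor 1, was at 8.81, 9.32 and 6.28 CPM in Rspo3+ and 988, 617 and 787 CPM in Rspo3- libraries (log2FC -6.60 ± 0.63, adjusted p = 2.04e-07). Vegfc and Flt1 were higher in Rspo3- cells, and Flt4, Nrp2 and Pgf in Rspo3+ cells.

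BMP and TGF-beta genes fell more often than they rose, with 14 of 31 lower and 6 higher. Acvrl1, encoding ALK1, the endothelial receptor of BMP9 and BMP10, was at 104, 114 and 102 CPM in Rspo3+ and 525, 395 and 437 CPM in Rspo3- libraries (log2FC -2.09 ± 0.18, adjusted p = 7.55e-08). Smad6, an inhibitory Smad, was at 1.97, 1.29 and 0.83 CPM in Rspo3+ and 92.4, 111 and 78.1 CPM in Rspo3- libraries (log2FC -6.03 ± 0.34, adjusted p = 6.62e-10). Tmem100, a target of ALK1 signaling, was at 15, 16.3 and 9.25 CPM in Rspo3+ and 121, 222 and 81.8 CPM in Rspo3- libraries (log2FC -3.38 ± 0.32, adjusted p = 1.61e-07). Id1 and Id3, targets of BMP signaling, also fell (log2FC -1.95 ± 0.27, adjusted p = 2.04e-05 for Id1 and log2FC -1.03 ± 0.20, adjusted p = 7.92e-04 for Id3). Among the ligands, Tgfb3 rose, at 380.4, 349.8 and 375 CPM in Rspo3+ and 49.5, 37.2 and 71.5 CPM in Rspo3- libraries (log2FC 2.80 ± 0.29, adjusted p = 4.72e-07).

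In the Notch pathway, 10 of 18 genes fell and 2 rose, with a median log2 fold change of -1.06. Among all genes tested, 10.8% fell and 9.23% rose. Notch4, an endothelial receptor, was at 12.8, 15.3 and 7.82 CPM in Rspo3+ and 152, 74.3 and 136 CPM in Rspo3- libraries (log2FC -3.33 ± 0.35, adjusted p = 6.35e-07). Jag1, a ligand, was at 25.7, 32.2 and 14.1 CPM in Rspo3+ and 194, 355 and 134 CPM in Rspo3- libraries (log2FC -3.24 ± 0.39, adjusted p = 3.76e-06), and Jag2, another ligand, at 7.3, 6.01 and 8.18 CPM in Rspo3+ and 149, 107 and 143 CPM in Rspo3- libraries (log2FC -4.22 ± 0.60, adjusted p = 2.82e-05). Notch2 rose, at 24.3, 26.4 and 10.8 CPM in Rspo3+ and 5.61, 2.35 and 5.69 CPM in Rspo3- libraries (log2FC 2.18 ± 0.48, adjusted p = 0.00249), and without Rspo3+ library 2 or 3, or without Rspo3- library 2, only 1 gene of the pathway rose. Hes1, a target gene of Notch, was at 1144, 794 and 979.9 CPM in Rspo3+ and 821, 701 and 963 CPM in Rspo3- libraries. The difference did not pass (log2FC 0.23 ± 0.22, adjusted p = 0.528).

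Among genes for secreted factors that act on epithelium, 4 of 38 rose and 9 fell, beside 9.23% and 10.8% of all genes tested. Their sums were 617 to 649 TPM in Rspo3+ and 497 to 575 TPM in Rspo3- libraries. Wnt2, a Wnt ligand, was at 269.7, 238 and 325 CPM in Rspo3+ and 23.3, 28.1 and 45.3 CPM in Rspo3- libraries (log2FC 3.11 ± 0.49, adjusted p = 8.84e-05). Reln, encoding the secreted glycoprotein reelin, was at 1713, 1627 and 1021 CPM in Rspo3+ and 168, 145 and 273 CPM in Rspo3- libraries (log2FC 2.90 ± 0.53, adjusted p = 4.20e-04). Kitl, encoding stem cell factor, was at 4.68, 3.01 and 2.13 CPM in Rspo3+ and 138, 138 and 87.6 CPM in Rspo3- libraries (log2FC -5.16 ± 0.42, adjusted p = 2.65e-08). Igf2, an insulin-like growth factor, was at 2.52, 4.66 and 0.83 CPM in Rspo3+ and 71.5, 61.9 and 36.4 CPM in Rspo3- libraries (log2FC -4.37 ± 0.49, adjusted p = 1.43e-06, and -4.99 without Rspo3+ library 2). Fgf1, a fibroblast growth factor, was at 0.964, 2.09 and 0.83 CPM in Rspo3+ and 17.8, 15.7 and 12.8 CPM in Rspo3- libraries (log2FC -3.55 ± 0.45, adjusted p = 6.55e-06). The other R-spondins were low in both groups, with Rspo1 at 0.0459, 0.675 and 1.19 CPM in Rspo3+ and 0.708, 3.18 and 0.0862 CPM in Rspo3- libraries, Rspo2 at 2.62, 2.15 and 0 CPM in Rspo3+ and 1.3, 0 and 0 CPM in Rspo3- libraries, and Rspo4 at 0 in all 6 libraries.

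Of 20 Wnt receptors and target genes tested, 3 rose and 5 fell, beside 9.23% and 10.8% of all genes tested. The fallen ones numbered 2 without Rspo3+ library 1, Rspo3+ library 3 or Rspo3- library 2, and 3 without Rspo3- library 1. Lgr5, a receptor of R-spondins, was low in both groups, at 6.66, 7.18 and 3.79 CPM in Rspo3+ and 0.059, 0.0692 and 0.517 CPM in Rspo3- libraries (log2FC 4.82 ± 1.02, adjusted p = 0.00175, and 6.40 without Rspo3- library 3). Tcf7, a transcription factor of the pathway, was at 1.01, 0.675 and 0 CPM in Rspo3+ and 5.72, 4.71 and 6.72 CPM in Rspo3- libraries (log2FC -3.21 ± 0.60, adjusted p = 5.24e-04, and -3.86 without Rspo3+ library 1). Nkd1, a Wnt inhibitor and target, was at 53.5, 48.6 and 49.8 CPM in Rspo3+ and 24.8, 13.8 and 19.5 CPM in Rspo3- libraries (log2FC 1.38 ± 0.35, adjusted p = 0.00641). Axin2, a target gene in many tissues, was at 0.872, 0.797 and 0.356 CPM in Rspo3+ and 1.95, 0.484 and 0.258 CPM in Rspo3- libraries and was not called.

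Guidance genes changed in both directions, with 8 of 40 higher and 9 lower. Ntn1, encoding netrin 1, a ligand of the receptor Unc5b, was at 392, 378 and 268 CPM in Rspo3+ and 58.1, 41.2 and 75.8 CPM in Rspo3- libraries (log2FC 2.57 ± 0.29, adjusted p = 1.62e-06). Ntn4, encoding the basement membrane netrin 4, was at 12.2, 9.08 and 9.01 CPM in Rspo3+ and 72.4, 61.7 and 59.8 CPM in Rspo3- libraries (log2FC -2.67 ± 0.26, adjusted p = 2.49e-07). Both netrin 1 and its receptor were higher in Rspo3+ cells. Sema3g, a semaphorin of arterial endothelium, was at 0.138, 0.552 and 0.356 CPM in Rspo3+ and 112, 40.1 and 42.4 CPM in Rspo3- libraries (log2FC -7.56 ± 1.08, adjusted p = 3.09e-05, and -8.19 without Rspo3+ library 2 and -6.91 without Rspo3- library 1).

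Lipid genes were lower more often than higher, with 10 of 26 falling and 4 rising. The number that rose was 2 without Rspo3+ library 3 or without Rspo3- library 1 or 2. Scarb1, the receptor for high-density lipoprotein, was at 9.5, 11.5 and 15.1 CPM in Rspo3+ and 536, 277 and 497 CPM in Rspo3- libraries (log2FC -5.19 ± 0.30, adjusted p = 7.97e-10). Slc27a3, a fatty acid transport protein gene, was at 0.459, 0.245 and 0.948 CPM in Rspo3+ and 23.1, 19.4 and 24.4 CPM in Rspo3- libraries (log2FC -5.44 ± 0.48, adjusted p = 6.92e-08). Cd36, a fatty acid receptor, was at 88.9, 93.2 and 108 CPM in Rspo3+ and 1812, 1960.2 and 1823 CPM in Rspo3- libraries (log2FC -4.27 ± 0.59, adjusted p = 2.22e-05). Vldlr, the receptor for very low-density lipoprotein, rose, at 84.5, 83.5 and 90.4 CPM in Rspo3+ and 1.53, 6.37 and 10.3 CPM in Rspo3- libraries (log2FC 3.85 ± 0.44, adjusted p = 2.16e-06, and 4.47 without Rspo3- library 3).

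Caveolae and transcytosis genes numbered 4 higher and 3 lower of 11, and the higher ones numbered 2 without Rspo3+ library 3 or Rspo3- library 1. Ehd4, an ATPase of membrane trafficking, was at 59.8, 64.7 and 55.6 CPM in Rspo3+ and 715, 683 and 579 CPM in Rspo3- libraries (log2FC -3.46 ± 0.17, adjusted p = 1.18e-10). Cavin2, a coat protein of caveolae, was at 5239, 5156 and 6021 CPM in Rspo3+ and 1737, 2036 and 2359 CPM in Rspo3- libraries (log2FC 1.42 ± 0.20, adjusted p = 3.09e-05). Cav1, the main coat protein of caveolae, was at 2793, 2746 and 3310.1 CPM in Rspo3+ and 2385, 1563 and 2387 CPM in Rspo3- libraries. It was not called (log2FC 0.48 ± 0.20, adjusted p = 0.0934). Of 13 scavenger receptors, 5 rose and 1 fell, with sums of 4272 to 4991 TPM in Rspo3+ and 576 to 1109 TPM in Rspo3- libraries. Those that rose were Lyve1, Mrc1, Stab1, Stab2 and Scarf1, of which Lyve1 and Mrc1 are also lymphatic identity genes above. Lyve1 supplied most of the sums in Rspo3+ libraries, at 3309, 4063 and 3339.6 TPM. Stab2, a receptor for hyaluronan, was at 58.9, 40.6 and 32 CPM in Rspo3+ and 1.18, 0.761 and 5.51 CPM in Rspo3- libraries (log2FC 4.16 ± 0.92, adjusted p = 0.00248). The one that fell was Scara3, at 3.08, 1.53 and 4.03 CPM in Rspo3+ and 35.5, 68.7 and 38.8 CPM in Rspo3- libraries (log2FC -4.08 ± 0.36, adjusted p = 6.92e-08).

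Genes for leukocyte adhesion and for surface signals to leukocytes fell in 8 of 16 cases in Rspo3+ cells and rose in 2. Selp, encoding P-selectin, was at 10.8, 20.2 and 13 CPM in Rspo3+ and 664, 1710.0 and 815 CPM in Rspo3- libraries (log2FC -6.18 ± 1.00, adjusted p = 1.25e-04). Madcam1, the address molecule for gut-homing lymphocytes, was at 1.74, 4.17 and 3.32 CPM in Rspo3+ and 443, 939 and 433 CPM in Rspo3- libraries (log2FC -7.64 ± 0.93, adjusted p = 4.29e-06). Jam3, an adhesion molecule of junctions, was at 11.9, 10.2 and 11.4 CPM in Rspo3+ and 106, 40.2 and 80.7 CPM in Rspo3- libraries (log2FC -2.76 ± 0.25, adjusted p = 1.37e-07). Cd200, a surface protein that restrains myeloid cells, was at 254, 276 and 346 CPM in Rspo3+ and 785, 878 and 843 CPM in Rspo3- libraries (log2FC -1.52 ± 0.16, adjusted p = 1.01e-06). Those that rose were Cd274 and Cd47, and without Rspo3- library 1 only 1 of them did. Cd47, which signals to macrophages not to engulf a cell, was at 910.1, 820.4 and 991 CPM in Rspo3+ and 553, 592 and 569.9 CPM in Rspo3- libraries (log2FC 0.67 ± 0.15, adjusted p = 0.00325). Icam1 was abundant in both groups, at 1580.0, 2349 and 1758 CPM in Rspo3+ and 1410.2, 1834 and 1359 CPM in Rspo3- libraries. It did not pass the test (log2FC 0.31 ± 0.23, adjusted p = 0.4).

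Chemokine genes and their atypical receptors numbered 5 higher and 5 lower of 21. Their summed level was 21127 to 22746 TPM in Rspo3+ and 3713 to 5042 TPM in Rspo3- libraries, most of it Ccl21a. Ackr2, a decoy receptor for inflammatory chemokines on lymphatic vessels, was at 269, 316 and 296 CPM in Rspo3+ and 22.9, 30.1 and 51.8 CPM in Rspo3- libraries (log2FC 3.07 ± 0.45, adjusted p = 4.07e-05). Ccl2, a monocyte chemokine, was at 344, 667 and 447 CPM in Rspo3+ and 33.5, 91.6 and 51.5 CPM in Rspo3- libraries (log2FC 3.05 ± 0.52, adjusted p = 2.01e-04). Cxcl12, the ligand of CXCR4, fell, at 92.3, 106 and 91.6 CPM in Rspo3+ and 760.4, 201 and 421 CPM in Rspo3- libraries (log2FC -2.25 ± 0.33, adjusted p = 4.21e-05). Of 15 cytokine genes, 3 rose and 3 fell, the latter 5 without Rspo3+ library 2 or Rspo3- library 3 and 6 with DESeq2. Il33, an alarmin, was at 975, 1020.0 and 1622 CPM in Rspo3+ and 122, 256 and 302 CPM in Rspo3- libraries (log2FC 2.41 ± 0.30, adjusted p = 5.58e-06). Il7, a survival factor for lymphocytes, was at 161, 151 and 143 CPM in Rspo3+ and 20.6, 29.3 and 47.7 CPM in Rspo3- libraries (log2FC 2.22 ± 0.28, adjusted p = 6.72e-06). Il6 was at 1.97, 6.56 and 8.42 CPM in Rspo3+ and 153, 102 and 155 CPM in Rspo3- libraries (log2FC -4.64 ± 0.43, adjusted p = 1.40e-07), and Il34, a ligand of the CSF1 receptor, at 2.34, 2.39 and 2.85 CPM in Rspo3+ and 21, 13.7 and 18.5 CPM in Rspo3- libraries (log2FC -2.82 ± 0.32, adjusted p = 1.56e-06).

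Sphingosine and lysophosphatidic acid genes fell in 6 of 15 cases, and none was higher in edgeR's test, at an unadjusted p under 0.05, with DESeq2 or with limma voom. S1pr3, a sphingosine 1-phosphate receptor, was at 5.14, 12.8 and 6.4 CPM in Rspo3+ and 47.7, 61.2 and 51.4 CPM in Rspo3- libraries (log2FC -2.72 ± 0.43, adjusted p = 9.87e-05). Plpp3, a phosphatase of lipid mediators, was at 549, 477 and 561 CPM in Rspo3+ and 1251, 882 and 1117 CPM in Rspo3- libraries (log2FC -1.03 ± 0.18, adjusted p = 2.78e-04). Lpar6, a lysophosphatidic acid receptor, was at 26.1, 39.3 and 41.6 CPM in Rspo3+ and 108, 102 and 106 CPM in Rspo3- libraries (log2FC -1.56 ± 0.27, adjusted p = 2.88e-04). Spns2, the endothelial exporter of sphingosine 1-phosphate, was at 312, 289 and 234 CPM in Rspo3+ and 298, 281 and 228 CPM in Rspo3- libraries. It was not called (log2FC 0.05 ± 0.29, adjusted p = 0.944).

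Genes of vascular tone numbered 5 higher and 8 lower of 21. Ptgs1, encoding cyclooxygenase 1, was at 7.71, 12.7 and 7.35 CPM in Rspo3+ and 155, 131 and 124 CPM in Rspo3- libraries (log2FC -3.88 ± 0.26, adjusted p = 3.41e-09). Ace, the angiotensin-converting enzyme, was at 10.1, 19.7 and 9.48 CPM in Rspo3+ and 457, 348 and 283 CPM in Rspo3- libraries (log2FC -4.78 ± 0.46, adjusted p = 2.33e-07). Edn1, encoding endothelin 1, was at 5.14, 2.76 and 3.08 CPM in Rspo3+ and 330.1, 153 and 193 CPM in Rspo3- libraries (log2FC -5.92 ± 0.82, adjusted p = 2.29e-05). Gucy1b1, a subunit of the nitric oxide receptor, rose, at 111, 125 and 81 CPM in Rspo3+ and 39.7, 24.6 and 30.2 CPM in Rspo3- libraries (log2FC 1.74 ± 0.33, adjusted p = 5.16e-04). Coagulation genes numbered 6 higher and 5 lower of 15. Entpd1, an ectonucleotidase that removes ADP, was at 5.19, 9.63 and 3.56 CPM in Rspo3+ and 303, 237 and 259 CPM in Rspo3- libraries (log2FC -5.42 ± 0.37, adjusted p = 3.41e-09). Procr, the protein C receptor, was at 8.54, 12.6 and 15.2 CPM in Rspo3+ and 195, 106 and 169.9 CPM in Rspo3- libraries (log2FC -3.71 ± 0.30, adjusted p = 2.65e-08). Plat, the tissue plasminogen activator, was at 28.5, 42.3 and 61.3 CPM in Rspo3+ and 954, 2672 and 1360.5 CPM in Rspo3- libraries, with Rspo3- library 2 the highest (log2FC -5.24 ± 0.46, adjusted p = 6.48e-08). Tfpi, the inhibitor of tissue factor, rose (log2FC 1.31 ± 0.23, adjusted p = 2.31e-04).

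Basement membrane genes fell in 8 of 25 cases and rose in 3, beside 10.8% and 9.23% of all genes tested. Their sums did not overlap, at 809 to 1452 TPM in Rspo3+ and 2532 to 4132 TPM in Rspo3- libraries. Sparcl1, a matricellular protein gene, was at 29.5, 51.5 and 37.3 CPM in Rspo3+ and 1474, 1450.3 and 1388 CPM in Rspo3- libraries (log2FC -5.19 ± 0.32, adjusted p = 1.13e-09). Col15a1, a collagen of the vessel wall, was at 3.4, 2.45 and 0.711 CPM in Rspo3+ and 74.8, 41.9 and 42.3 CPM in Rspo3- libraries (log2FC -4.51 ± 0.37, adjusted p = 2.90e-08). Nid2, encoding nidogen 2, rose, at 243, 293 and 176 CPM in Rspo3+ and 55.9, 51.6 and 52.5 CPM in Rspo3- libraries (log2FC 2.15 ± 0.30, adjusted p = 1.88e-05). Of 16 integrin genes, 9 fell and 2 rose. The 2 that rose were Itga9 and Itgav, the latter at 175, 197 and 115 CPM in Rspo3+ and 37, 37.6 and 35.7 CPM in Rspo3- libraries (log2FC 2.14 ± 0.29, adjusted p = 1.58e-05). Itgb5 was at 16.7, 32.1 and 23.2 CPM in Rspo3+ and 80.8, 109 and 91.7 CPM in Rspo3- libraries (log2FC -1.96 ± 0.26, adjusted p = 1.37e-05), and the laminin-binding chain Itga6 fell (log2FC -2.15 ± 0.41, adjusted p = 6.40e-04).

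Ion channel genes numbered 5 higher and 6 lower of 16. Kcnj8, the pore of the Kir6.1 potassium channel, was at 318, 365 and 331 CPM in Rspo3+ and 18.9, 20.6 and 28.8 CPM in Rspo3- libraries (log2FC 3.89 ± 0.23, adjusted p = 7.97e-10). Kcnn3, a potassium channel opened by calcium, was at 243, 198 and 169.9 CPM in Rspo3+ and 19.7, 21.3 and 27.7 CPM in Rspo3- libraries (log2FC 3.15 ± 0.22, adjusted p = 4.06e-09). Piezo2, a channel opened by mechanical force, rose (log2FC 2.26 ± 0.27, adjusted p = 3.84e-06), while Piezo1 was at 80.8, 94 and 42.1 CPM in Rspo3+ and 96.3, 39.7 and 64.4 CPM in Rspo3- libraries and was not called. Ano1, a chloride channel, was at 0.734, 2.45 and 0.948 CPM in Rspo3+ and 64.6, 39 and 39.4 CPM in Rspo3- libraries (log2FC -5.09 ± 0.57, adjusted p = 1.49e-06, and -5.85 without Rspo3+ library 2).

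Genes of the interferon response rose in 11 of 24 cases and fell in 2, with a median log2 fold change of 0.48. Their summed level was 3783 to 4038 TPM in Rspo3+ and 2489 to 3175 TPM in Rspo3- libraries. Zbp1, a sensor of nucleic acids, was at 178, 162 and 120.1 CPM in Rspo3+ and 22.8, 12.6 and 25 CPM in Rspo3- libraries (log2FC 2.93 ± 0.25, adjusted p = 4.56e-08). Oas2, an oligoadenylate synthetase, fell, at 1.47, 0.552 and 0.356 CPM in Rspo3+ and 21.5, 43.3 and 23.7 CPM in Rspo3- libraries (log2FC -5.13 ± 0.50, adjusted p = 2.56e-07, and -5.95 without Rspo3+ library 1), and so did Iigp1 (log2FC -0.86 ± 0.30, adjusted p = 0.0496). The number that fell was 1 without any 1 of the 3 Rspo3+ libraries or without Rspo3- library 2 or 3. Irf7 was at 85.2, 80.6 and 109.5 CPM in Rspo3+ and 87.3, 82 and 106 CPM in Rspo3- libraries and was not called.

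Of 11 genes of MHC class I and antigen processing, 8 rose (5 with limma on log2(TPM + 1)), with sums of 27943 to 29468 TPM in Rspo3+ and 15769.5 to 19124 TPM in Rspo3- libraries. B2m, the light chain of class I molecules, was at 7283, 7152 and 6974 CPM in Rspo3+ and 4798, 2964 and 4432 CPM in Rspo3- libraries (log2FC 0.81 ± 0.20, adjusted p = 0.00513), and its adjusted p was 0.0514 with limma on log2(TPM + 1). H2-K1, a class I heavy chain, was at 3512, 3516 and 3379.8 CPM in Rspo3+ and 1927, 1924 and 1976 CPM in Rspo3- libraries (log2FC 0.84 ± 0.16, adjusted p = 5.38e-04). H2-T23, a nonclassical heavy chain, was at 1042, 996 and 808 CPM in Rspo3+ and 474, 305 and 523 CPM in Rspo3- libraries (log2FC 1.13 ± 0.19, adjusted p = 1.78e-04). Heavy chain genes resemble each other, so that reads may be split between them. Psmb9, a subunit of the immunoproteasome, was at 251, 208 and 234 CPM in Rspo3+ and 97.6, 99.2 and 106 CPM in Rspo3- libraries (log2FC 1.20 ± 0.15, adjusted p = 4.73e-06). For MHC class II, edgeR's test called none of 7 genes, and none passed at an unadjusted p under 0.05, with DESeq2 or with limma voom. In the fit of only the 6 compared libraries, 1 was called higher, H2-Eb1 (adjusted p = 0.0388). H2-Eb1 was at 64.4, 82.7 and 62.6 CPM in Rspo3+ and 31.3, 49.3 and 41.4 CPM in Rspo3- libraries (log2FC 0.78 ± 0.72, adjusted p = 0.51), H2-DMb1 at 24.1, 26.1 and 29.9 CPM in Rspo3+ and 14.9, 23.2 and 16.1 CPM in Rspo3- libraries (log2FC 0.56 ± 0.44, adjusted p = 0.424), and the class II regulator Ciita at 7.39, 6.75 and 2.96 CPM in Rspo3+ and 3.9, 2.15 and 4.05 CPM in Rspo3- libraries (log2FC 0.77 ± 0.69, adjusted p = 0.494).

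Against 9.23% higher and 10.8% lower of all genes tested, 3 of 17 immediate early and heat shock genes rose and 2 fell. The rises numbered 5 without Rspo3- library 1 or with DESeq2. These genes respond to handling of cells. Their sums were high and did not overlap, at 36786 to 40143 TPM in Rspo3+ and 31438 to 34609 TPM in Rspo3- libraries. Fosb was at 637, 936 and 481 CPM in Rspo3+ and 383, 301 and 295 CPM in Rspo3- libraries (log2FC 1.07 ± 0.25, adjusted p = 0.00353), Nr4a1, an orphan nuclear receptor, at 347, 436 and 368 CPM in Rspo3+ and 782, 1431 and 883 CPM in Rspo3- libraries (log2FC -1.43 ± 0.24, adjusted p = 1.78e-04), and Ier3 at 556, 517 and 431 CPM in Rspo3+ and 1559.8, 599 and 1394 CPM in Rspo3- libraries (log2FC -1.24 ± 0.26, adjusted p = 0.00143). The part of this response in the other results was not tested. Of 18 cell cycle genes, 4 rose (2 in the fit of only the compared libraries) and 1 fell. Ccnd2, encoding cyclin D2, was at 613, 462 and 517 CPM in Rspo3+ and 257, 249.5 and 238 CPM in Rspo3- libraries (log2FC 1.10 ± 0.15, adjusted p = 2.10e-05), and Ccnd1, encoding cyclin D1, at 206, 134 and 156 CPM in Rspo3+ and 91.8, 29.7 and 71.9 CPM in Rspo3- libraries (log2FC 1.36 ± 0.30, adjusted p = 0.00248). Cdkn1c, an inhibitor of the cycle, was at 28, 19 and 39.9 CPM in Rspo3+ and 52.1, 109 and 65.3 CPM in Rspo3- libraries and fell (log2FC -1.39 ± 0.32, adjusted p = 0.00368). Mki67, the proliferation marker, was at 6.2, 8.71 and 2.49 CPM in Rspo3+ and 1.53, 2.35 and 1.55 CPM in Rspo3- libraries. This difference was not called (log2FC 1.68 ± 0.66, adjusted p = 0.0827).

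In glycolysis and the response to low oxygen, 7 of 18 genes fell and 2 rose, beside 10.8% and 9.23% of all genes tested. Ldha, lactate dehydrogenase A, was at 198, 221 and 225 CPM in Rspo3+ and 633, 513 and 609 CPM in Rspo3- libraries (log2FC -1.45 ± 0.18, adjusted p = 5.62e-06). Pfkl, a phosphofructokinase, was at 31.8, 37.5 and 49.4 CPM in Rspo3+ and 109, 179 and 109.5 CPM in Rspo3- libraries (log2FC -1.75 ± 0.25, adjusted p = 3.29e-05). Bnip3, a mitochondrial protein gene induced by low oxygen, was at 21.5, 27.2 and 34 CPM in Rspo3+ and 67.3, 128 and 90.7 CPM in Rspo3- libraries (log2FC -1.79 ± 0.24, adjusted p = 1.75e-05). Egln3, an oxygen sensor, rose, at 42.9, 19.4 and 29.5 CPM in Rspo3+ and 4.49, 4.43 and 11.5 CPM in Rspo3- libraries (log2FC 2.17 ± 0.42, adjusted p = 7.24e-04, and 2.79 without Rspo3- library 3). Gapdh was at 447, 483 and 463 CPM in Rspo3+ and 546, 312 and 491 CPM in Rspo3- libraries and was not called.

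**Figure D4:**
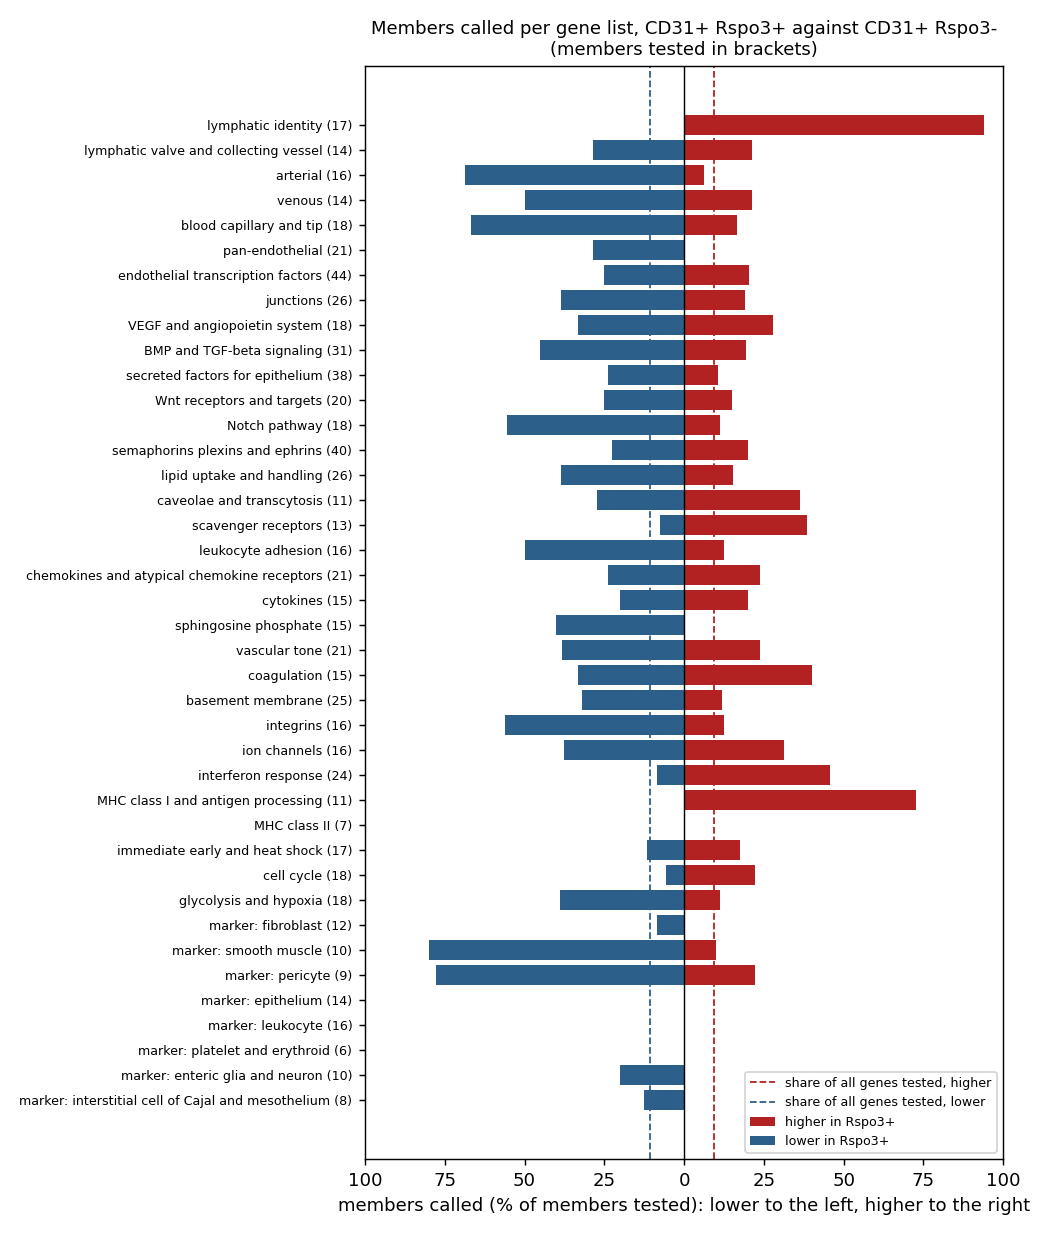
Share of the members tested of each gene list that were called higher (red, to the right) or lower (blue, to the left) in Rspo3+ cells, with dashed lines at the shares of all genes tested, 9.23% higher and 10.8% lower. Lymphatic identity and MHC class I extend farthest to the right, and smooth muscle, pericyte, arterial and blood capillary genes farthest to the left.

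Markers of cell types outside the vessel wall were read next. Fibroblast markers summed to 689 to 1176 TPM in Rspo3+ and 741 to 1027 TPM in Rspo3- libraries. Of 12 fibroblast markers, 1 was called, beside 20.1% of all genes tested. This was Pi16, which was lower (log2FC -3.62 ± 0.63, adjusted p = 2.41e-04). Dcn, encoding the collagen-binding decorin, was at 368, 625 and 546 CPM in Rspo3+ and 341, 613 and 374 CPM in Rspo3- libraries (log2FC 0.21 ± 0.54, adjusted p = 0.844). None of 14 epithelial markers was called by edgeR or DESeq2 or passed at an unadjusted p under 0.05, and limma voom called 1 lower. In the fit of only the 6 compared libraries, 3 were called lower. The epithelial sums did not overlap, at 505 to 1222 TPM in Rspo3+ and 1534 to 3331 TPM in Rspo3- libraries, with the intestinal fatty acid carrier Fabp1 at 58.8, 146 and 209 CPM in Rspo3+ and 212, 582 and 510.2 CPM in Rspo3- libraries (log2FC -1.66 ± 0.99, adjusted p = 0.27). For Fabp1 the adjusted p was 0.0429 in the fit of the compared libraries and 0.0447 with limma voom.

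Leukocyte markers, despite the CD45 gate, summed to 5566 to 10244 TPM in Rspo3+ and 8030.1 to 14069.7 TPM in Rspo3- libraries. Most of this was the immunoglobulin light chain Igkc, at 1270.1, 2361 and 1489 CPM in Rspo3+ and 2155, 3175 and 1756 CPM in Rspo3- libraries (log2FC -0.47 ± 0.87, adjusted p = 0.771), while Ptprc, the CD45 gene itself, was at 5.05, 10.2 and 2.37 CPM in Rspo3+ and 2.3, 4.71 and 5 CPM in Rspo3- libraries. EdgeR's test called none of 16 leukocyte markers tested, none passed at an unadjusted p under 0.05, and DESeq2 and limma voom called none. Without Rspo3+ library 2, 1 leukocyte marker was lower, and S100a8 was at 0 in all 6 libraries. Platelet and erythroid markers summed to 15.2 to 29 TPM in Rspo3+ and 24.4 to 62.6 TPM in Rspo3- libraries, with Gp1ba at 0 in all 6 libraries and the globin gene Hba-a2 at 3.53, 0.429 and 3.67 CPM in Rspo3+ and 3.19, 6.37 and 7.15 CPM in Rspo3- libraries (log2FC -1.14 ± 1.01, adjusted p = 0.491). None of 6 tested was called by edgeR, DESeq2 or limma voom, and 2 were lower at an unadjusted p under 0.05. Of 10 glial and neuronal markers, 2 fell, beside 10.8% of all genes tested. These were Ret and Uchl1, with the latter at 2.07, 2.45 and 3.32 CPM in Rspo3+ and 19.3, 15 and 19 CPM in Rspo3- libraries (log2FC -2.77 ± 0.53, adjusted p = 6.50e-04). Of 8 markers of interstitial cells of Cajal and mesothelium, only Ano1, also an ion channel gene above, fell (2 without Rspo3- library 3), again beside 10.8%. The part of these cells in the results was not tested.

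Genes outside the lists with large differences were taken where the higher group averaged at least 50 CPM and the libraries did not overlap. Among the largest rises were Lrrn2, a neuronal leucine-rich repeat protein gene, at 105, 89.2 and 113 CPM in Rspo3+ and 2.24, 6.09 and 1.98 CPM in Rspo3- libraries (log2FC 4.89 ± 0.49, adjusted p = 3.67e-07, and 5.59 without Rspo3- library 2), and Apol7e, of the apolipoprotein L family, at 85.8, 84.8 and 91.6 CPM in Rspo3+ and 0.472, 6.23 and 2.58 CPM in Rspo3- libraries (log2FC 4.82 ± 0.80, adjusted p = 1.52e-04, and 5.87 without Rspo3- library 2). Members of that family resemble each other and may share reads. AA467197 was at 133, 118 and 144 CPM in Rspo3+ and 2.66, 1.73 and 5.43 CPM in Rspo3- libraries (log2FC 5.35 ± 0.83, adjusted p = 8.19e-05). Slc9a9, a sodium-proton exchanger of endosomes, was at 108, 136 and 138 CPM in Rspo3+ and 5.78, 4.84 and 10.3 CPM in Rspo3- libraries (log2FC 4.19 ± 0.33, adjusted p = 1.95e-08). Efnb3, an ephrin ligand, was at 90.2, 87.9 and 46.9 CPM in Rspo3+ and 3.3, 4.77 and 6.03 CPM in Rspo3- libraries (log2FC 4.0 ± 0.60, adjusted p = 5.09e-05), and Ptger2, a receptor for prostaglandin E2, at 97.4, 104 and 81.4 CPM in Rspo3+ and 3.3, 5.61 and 10.8 CPM in Rspo3- libraries (log2FC 3.85 ± 0.45, adjusted p = 2.75e-06). The Rspo3- libraries held each of these 6 genes at 10.8 CPM or less.

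The largest falls reached levels near 0 in Rspo3+ libraries. C1qtnf9, a secreted protein gene of the C1q and TNF family, was at 0.0459, 0.184 and 1.07 CPM in Rspo3+ and 186, 164 and 145 CPM in Rspo3- libraries (log2FC -9.01 ± 0.88, adjusted p = 2.87e-07, and -8.25 without Rspo3+ library 1 and -10.51 without Rspo3+ library 3). Ssu2 was at 0.688, 0.307 and 0 CPM in Rspo3+ and 152, 84.4 and 129 CPM in Rspo3- libraries (log2FC -8.22 ± 0.83, adjusted p = 9.25e-07, and -9.23 without Rspo3+ library 1). Cysltr1, a receptor for leukotrienes, was at 0.0918, 1.59 and 0 CPM in Rspo3+ and 112, 93.4 and 87 CPM in Rspo3- libraries (log2FC -7.32 ± 0.81, adjusted p = 1.40e-06, and -6.71 without Rspo3+ library 1 and -10.41 without Rspo3+ library 2). Gper1, a G protein-coupled receptor that binds estrogen, was at 0.0918, 0 and 0.948 CPM in Rspo3+ and 53.5, 58.1 and 43.7 CPM in Rspo3- libraries (log2FC -7.57 ± 1.36, adjusted p = 3.44e-04, and -6.87 without Rspo3+ library 2 and -9.80 without Rspo3+ library 3). Cytl1, a small secreted protein gene, was at 1.65, 1.53 and 0.948 CPM in Rspo3+ and 196, 298 and 189 CPM in Rspo3- libraries (log2FC -7.31 ± 0.79, adjusted p = 1.03e-06), and Tox2, a nuclear protein gene, at 1.01, 0.0613 and 1.19 CPM in Rspo3+ and 109, 95.2 and 125 CPM in Rspo3- libraries (log2FC -7.24 ± 0.85, adjusted p = 2.68e-06, and -6.65 without Rspo3+ library 2). With so few counts in Rspo3+ libraries, the folds of C1qtnf9, Ssu2, Cysltr1, Gper1 and Tox2 moved with the single libraries named.

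The Rspo3 difference of CD31+ cells was then set against that of the colon in an interaction test. Of 19050 genes, 367 passed (1.93%), 245 (1.29%) with a higher and 122 (0.64%) with a lower difference in the small intestine. Without colonic Rspo3+ library 3 or colonic Rspo3- library 1 the first number was 151 or 156, and without colonic Rspo3- library 1 the second was 80. DESeq2's Wald test gave 485 and 340, and limma on log2(TPM + 1) gave 195 for the second. Kcnj8 averaged 338 ± 24.3 CPM (SD, n = 3) in small intestinal Rspo3+ cells and 76.3 ± 13.1 CPM in colonic Rspo3+ cells, against 22.8 ± 5.28 and 46.1 ± 12.5 CPM in the Rspo3- cells. Its difference was 3.17 larger on the log2 scale in the small intestine, at 0.73 ± 0.21 (adjusted p = 0.0138) in the colon and 3.89 ± 0.23 in the small intestine. Capg, an actin-capping protein gene, fell in the small intestine, at 8.54, 11.8 and 10.7 CPM in Rspo3+ and 90.8, 109.8 and 91.4 CPM in Rspo3- libraries (log2FC -3.24 ± 0.20, adjusted p = 1.07e-09), while in the colon its difference was -0.41 ± 0.18 (adjusted p = 0.108). Sfxn3, a mitochondrial amino acid carrier, was at 13.2, 15 and 19.4 CPM in Rspo3+ and 71.2, 89 and 69.4 CPM in Rspo3- libraries (log2FC -2.28 ± 0.16, adjusted p = 5.87e-09) and had a colonic difference of -0.21 ± 0.15 (adjusted p = 0.363).

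Nedd9, a scaffold protein of focal adhesions, rose in the small intestine, at 215, 316 and 291 CPM in Rspo3+ and 144, 134 and 156 CPM in Rspo3- libraries (log2FC 0.92 ± 0.21, adjusted p = 0.00368), and fell in the colon, with a log2 fold change of -1.82 ± 0.22 (adjusted p = 3.58e-06). Pramef8 was not called in the small intestine, at 49.6, 61 and 55.4 CPM in Rspo3+ and 39.8, 38.6 and 51.5 CPM in Rspo3- libraries (log2FC 0.35 ± 0.16, adjusted p = 0.14), and fell in the colon, with a log2 fold change of -2.07 ± 0.17 (adjusted p = 2.83e-08). Genes of the Prame family resemble each other, so that its reads may be shared. The interactions were 3.17 ± 0.30 (adjusted p = 1.28e-05) for Kcnj8, -2.83 ± 0.26 (adjusted p = 1.28e-05) for Capg, -2.07 ± 0.22 (adjusted p = 5.88e-05) for Sfxn3, 2.73 ± 0.31 (adjusted p = 8.39e-05) for Nedd9 and 2.42 ± 0.23 (adjusted p = 1.32e-05) for Pramef8, each given as the small intestinal minus the colonic log2 fold change. Prox1 (-0.80 ± 0.52 (adjusted p = 0.553)) and Plvap (-1.47 ± 0.57 (adjusted p = 0.23)) did not pass, so no difference between the tissues was detected for them.

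Set against small intestinal CD31- cells, the Rspo3 difference of CD31+ cells differed for 4620 of 19050 genes (24.3%), 2117 (11.1%) higher and 2503 (13.1%) lower. Swap70, a protein that links membrane signals to actin, fell in CD31+ cells, at 43.1, 35.5 and 37.2 CPM in Rspo3+ and 222, 307 and 233 CPM in Rspo3- libraries (log2FC -2.72 ± 0.16, adjusted p = 7.97e-10), and rose in CD31- cells, with a log2 fold change of 1.81 ± 0.16 (adjusted p = 1.53e-07). Cd34 rose in CD31- cells, with a log2 fold change of 2.26 ± 0.24 (adjusted p = 1.26e-06), where Rspo3+ cells averaged 1578 ± 104 CPM and Rspo3- cells 330.2 ± 55.9 CPM (SD, n = 3). Ly6a (2.02 ± 0.31 (adjusted p = 5.16e-05)), Ly6c1 (2.43 ± 0.32 (adjusted p = 1.08e-05)) and Sparcl1 (2.09 ± 0.28 (adjusted p = 1.48e-05)) also rose there and fell in CD31+ cells. The interactions, CD31+ minus CD31-, were -4.52 ± 0.22 (adjusted p = 2.99e-10) for Swap70, -6.31 ± 0.36 (adjusted p = 1.09e-09) for Cd34, -7.98 ± 0.47 (adjusted p = 1.49e-09) for Ly6a, -9.37 ± 0.50 (adjusted p = 5.09e-10) for Ly6c1 and -7.28 ± 0.42 (adjusted p = 1.49e-09) for Sparcl1. For all 5 genes the Rspo3 difference thus had opposite signs in the CD31+ and CD31- cells.

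**Figure D5:**
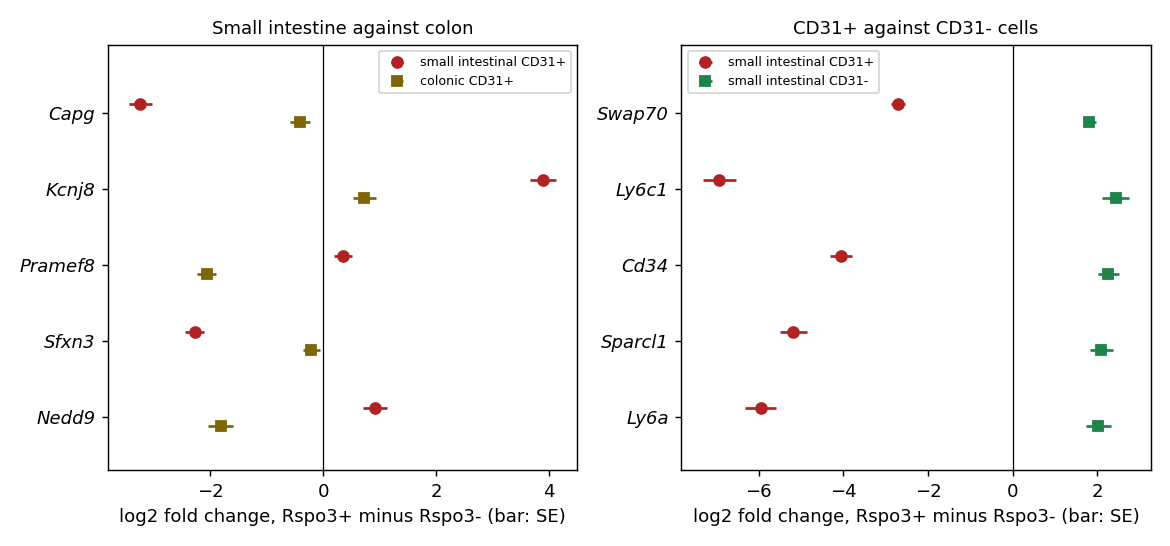
Log2 fold change (Rspo3+ minus Rspo3-, horizontal, bars are SE) of the 5 genes with the smallest adjusted p of each interaction, for small intestinal CD31+ cells (red circles) beside colonic CD31+ cells (left, squares) or small intestinal CD31- cells (right, squares). At the right each gene lies below 0 in CD31+ cells and above 0 in CD31- cells, and at the left Nedd9 is above 0 in the small intestine and below 0 in the colon.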

How the data were processed

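RNA of 24 libraries was measured, 3 in each of 8 groups, of which the 6 small intestinal CD31+ libraries are described here. Per the labels' protocols, RNA was purified with the Qiagen RNeasy kit and SMART-Seq v4 was used for libraries, a chemistry that keeps no strand information. The submitters' processing notes name Salmon 1.3.0, R 4.0.1 and the genome build mm10, while annotation release, filters and gene summing were not given in the sources used here. Estimated counts deposited by the authors were whole numbers, taken unchanged. A second deposited table holds log2 values of TPM + 1, as shown by their back-transformed library sums, and gave the TPM levels. Gene symbols were found for 54096 of 54418 gene IDs, and coordinates are from GENCODE on GRCm38.

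Columns were matched to groups through their names, which carry no replicate numbers, so library numbers follow column order and pair nothing. Counts were tested in edgeR 4.0.16 (R 4.3.3) by the quasi-likelihood F test after TMM scaling. A filterByExpr threshold of 10 counts (15 in total) kept 19050 genes. All 24 libraries entered 1 model of group means, and Benjamini-Hochberg adjusted p under 0.05 was called within each comparison. The SE comes from the fold change and its F statistic. Interactions compared the Rspo3 difference with that of colonic CD31+ and of small intestinal CD31- cells.

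The comparison, the 40 gene lists and the alternatives were chosen with earlier results of these data known. Genes were named by a rule: Pecam1 and Rspo3, the 3 members of each functional list with the smallest adjusted p and the strongest called member going the other way, the most abundant member of each of 8 marker lists, the 10 most abundant called genes and the 10 largest differences in each direction (at least 50 CPM in the higher group, no overlap), and the 5 smallest adjusted p of each interaction (at least 10 CPM in 1 group). Predicted-gene names were left out. Some genes that the rule names are not reported here. Other list members, such as Prox1, Flt4, Kdr and Cdh5, were named after their values were seen. Alternatives were DESeq2 1.42.0 (size factors and Wald test), limma 3.58.1 with voom or on log2(TPM + 1) and log2(TPM + 0.1), no filter, only the compared libraries, and each library left out.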

Additional observations from a re-analysis of the deposited data

Results flagged for a closer look

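The following values were set apart because an interaction test found the Rspo3 difference of small intestinal CD31+ cells to differ from that of another cell population. Against colonic CD31+ cells, 367 of 19050 genes differed in edgeR's test. The 5 with the smallest adjusted p were Capg, with a difference of log2 fold changes of -2.83, Kcnj8 with 3.17, Pramef8 with 2.42, Sfxn3 with -2.07 and Nedd9 with 2.73. Against small intestinal CD31- cells, 4620 of 19050 genes differed. There the 5 genes were Swap70, with a difference of -4.52, Ly6c1 with -9.37, Cd34 with -6.31, Sparcl1 with -7.28 and Ly6a with -7.98.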

How the results depend on the processing

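The numbers of genes higher or lower in Rspo3+ CD31+ cells, and those of the interaction with CD31- cells, stayed within 1.5 times of the values given under the 7 alternatives of scaling, filter, library choice and test, and with each library left out. Without single libraries they ranged from 1386 to 1722 higher and 1622 to 1908 lower genes, and from 1652 to 2304 and 1751 to 2338 for the interaction. In the interaction with the colon, 245 higher genes became 485 and 122 lower genes 340 with DESeq2's Wald test, and the lower ones 195 with limma on log2(TPM + 1). Without single libraries the higher ones ranged from 151 to 216 and the lower ones from 80 to 174. The causes were not tested. No sign was reversed for the 140 genes named by the rule. Of the 132 called, 129 stayed called under every alternative, and B2m (adjusted p = 0.0514 with limma on log2(TPM + 1)), Dusp1 and Ppia did not. Dusp1 and Ppia also lost their calls with only the compared libraries (0.122 and 0.121). Of the 8 not called, H2-Eb1 passed with only the compared libraries, Fabp1 there and with limma voom, and Pramef8 without Rspo3- library 3. List counts that moved by over 1.5 times stand beside them above. No paired analysis was possible because the columns carry library identifiers and no replicate numbers. Depth limits genes under about 1 CPM, whose counts rest on few reads.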
